A study of Mus musculus with 8 samples.

Results

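The core circadian clock genes of mouse mammary luminal cells are described here through 10 members: the repressor genes Nr1d1, Nr1d2, Bhlhe40 and Bhlhe41, the activator genes Arntl and Clock, the period genes Per1 and Per2, and the cryptochrome genes Cry1 and Cry2. Each member was read from the probe set that carries its symbol, and all 10 were measured, out of 19505 genes in all. The members were chosen by their place in the clock and by the differences of Nr1d1 and Bhlhe40 between the groups on these same arrays, so those differences are a description and carry no test.

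The arrays hold RNA of luminal cells, the inner epithelial layer of the mammary gland that makes milk, sorted by flow cytometry from enzyme-digested fresh tissue of mice on day 15 of pregnancy. There were 4 arrays labelled as control luminal cells and 4 labelled a3a6KO, a knockout name that refers to the laminin-binding integrin chains alpha 3 and alpha 6 (Itga3 and Itga6), and the design calls the arrays of each group biological replicates. The titles of the a3a6KO arrays also carry the word Ctrl, whereas their subtype and source labels name the knockout alone. The strain, the Cre line, the deleted parts of each gene, the genotype of the control mice, the ages of the mice, any pooling of animals and the hour at which tissue was taken are stated in none of the labels. In bulk samples of this kind, fewer cells of a type and less RNA per cell cannot be told apart.

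The mammalian clock is a loop of transcription that runs in most cells, with a period close to that of the day. The proteins of Arntl (also called Bmal1) and Clock bind E-boxes and switch on the Per, Cry and Nr1d genes and Bhlhe40 and Bhlhe41, whose products feed back. Per and Cry proteins block the activator pair, Bhlhe40 and Bhlhe41 (Dec1 and Dec2) compete at the E-boxes, and the heme-binding receptors encoded by Nr1d1 and Nr1d2 (Rev-erb alpha and beta) repress Arntl. In the mammary gland, clock genes are known to be expressed in the epithelium and to change in level between pregnancy and lactation.

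Promoter sequences of 8 members, in 12 windows reaching from 250 bases before a gene's start to 50 after it, were matched by symbol in RefSeq (build GRCm38.p6). The 250 bases before the start are shown for 5 of them, each with a match to a motif named below. Clock and Cry2 also hold such a match in those bases and are not shown. Capitals mark the E-box CACGTG, the E′ box CACGTT and the core AGGTCA bound by Rev-erb and Ror receptors, on either strand, and each run reads 5′ to 3′ along the gene.
Nr1d1, minus strand, chr11:98775378-98775627: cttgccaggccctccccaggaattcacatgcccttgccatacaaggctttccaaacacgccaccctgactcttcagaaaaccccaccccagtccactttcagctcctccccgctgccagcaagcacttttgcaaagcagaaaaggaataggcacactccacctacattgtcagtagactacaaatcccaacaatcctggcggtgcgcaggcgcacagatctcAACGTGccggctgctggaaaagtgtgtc
Nr1d2, minus strand, chr14:18239107-18239356: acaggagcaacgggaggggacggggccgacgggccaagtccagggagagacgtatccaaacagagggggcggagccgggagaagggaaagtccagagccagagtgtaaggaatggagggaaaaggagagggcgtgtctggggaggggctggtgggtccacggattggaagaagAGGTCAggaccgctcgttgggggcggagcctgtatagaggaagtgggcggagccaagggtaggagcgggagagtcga
Bhlhe41, minus strand, chr6:145865421-145865670: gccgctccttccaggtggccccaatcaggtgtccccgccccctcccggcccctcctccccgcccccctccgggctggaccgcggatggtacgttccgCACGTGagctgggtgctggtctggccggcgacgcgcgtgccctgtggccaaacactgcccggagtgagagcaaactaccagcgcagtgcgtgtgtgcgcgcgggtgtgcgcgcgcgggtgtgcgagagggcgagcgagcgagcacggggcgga
Per1, plus strand, chr11:69098699-69098948: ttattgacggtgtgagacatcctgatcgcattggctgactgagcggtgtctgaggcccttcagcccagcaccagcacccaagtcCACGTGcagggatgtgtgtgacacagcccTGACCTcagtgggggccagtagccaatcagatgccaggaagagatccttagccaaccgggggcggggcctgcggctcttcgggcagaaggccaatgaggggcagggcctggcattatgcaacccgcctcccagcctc
Cry1, minus strand, chr10:85185055-85185304: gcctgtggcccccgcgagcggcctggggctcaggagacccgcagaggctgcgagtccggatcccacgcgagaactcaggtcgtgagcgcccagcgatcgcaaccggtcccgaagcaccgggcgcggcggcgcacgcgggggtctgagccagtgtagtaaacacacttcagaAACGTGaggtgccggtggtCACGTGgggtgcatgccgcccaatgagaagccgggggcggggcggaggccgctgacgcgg

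In the windows with the 50 further bases included, the E-box was found in 3 of the 12 windows (of Bhlhe41, Per1 and Cry1), against 7.15% of all 32851 RefSeq windows of that length. The E′ box lay in 3 of the 12 (of Nr1d1, Cry1 and Cry2), against 4.68% of all windows, and the receptor core in 4 (of Nr1d2, Per1, Clock and Arntl), against 16.3%. The D-box TTANGTAA and the cAMP response element TGACGTCA were in 0 of the members' windows, against 2.32% and 1.79% of all. The E-box and the E′ box differ in their last letter and cannot coincide. These are matches of letters and not measured sites, and a window without a match says only that the letters are not in it.

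The values are log2 levels, on which a difference of 1 is a 2-fold change. They ran from 0.96 to 13.28 over all probe sets, and the arrays had medians of 4.07 to 4.11 over genes. As a measure of background, the 95th percentile of 5222 negative control sets (intron sets) was taken on each array; it lay at 6.38 to 6.90, and 2244 to 3229 genes exceeded it. Luminal markers such as Krt8, Epcam and Csn2 were above background on every array in 11 of 11 genes. Of the targeted genes, Itga6 was at 8.83, 8.73, 9.14 and 8.80 on control 1 to 4 and at 5.95, 3.65, 8.21 and 7.85 on a3a6KO 1 to 4, so a3a6KO 3 and 4 kept levels near those of control. Itga3 was at 6.72, 6.30, 5.37 and 7.27 in control and 5.11, 4.34, 5.55 and 5.60 in a3a6KO with overlapping groups. Whether the probes of either gene fall inside a deleted exon is unknown here, so these levels are a limited check of the labels. The differences of Nr1d1 and Bhlhe40, the range over the other members, and the medians of the lists other than cell type markers are therefore also given without a3a6KO 3 and 4.

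Among the members, the 2 that stood apart between the groups were Nr1d1 and Bhlhe40, both lower in a3a6KO, while the means of the other 8 differed by between -0.44 and 0.32. No member passed the test over all genes: limma, with Benjamini-Hochberg adjustment, called 0 of 19505 genes (0%), and 1000 genes (5.13%) had an unadjusted p under 0.05. Adjusted p-values of the members ran from 0.631 to 0.993 in that limma fit. The groups did not overlap in 2 of the 10 members, both with a3a6KO lower. In all genes they did not overlap in 2.94%, with a3a6KO lower in 1.56%; since the contrast chose these members, nothing is read from that count. Without a3a6KO 3 and 4, the differences of the other 8 members ran from -0.50 (Per1) to 0.22 (Cry1). The median difference of the members was -0.09 and that of all genes -0.0025.

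**Figure D1:**
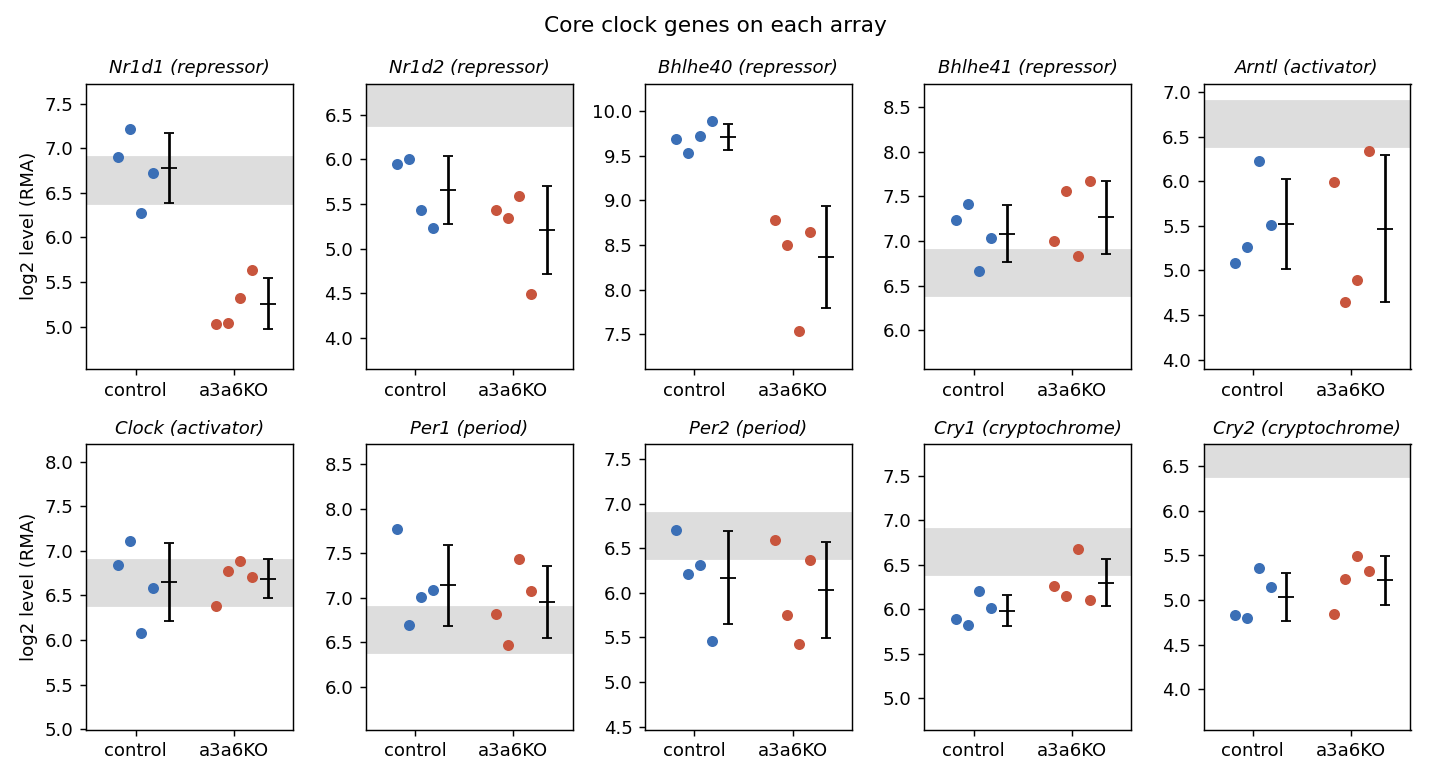
Log2 level of each core clock gene on each of the 8 arrays (points; 4 control, 4 a3a6KO), with the mean and SD of each group as a bar beside them. Every panel spans 3.2 log2 units around its gene, and the grey band is the range of background over arrays (6.38 to 6.90). The groups are apart in Nr1d1 and Bhlhe40 and overlap in the other 8 genes.

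Nr1d1, which encodes Rev-erb alpha, was at 6.90, 7.22, 6.27 and 6.72 on control 1 to 4 and at 5.03, 5.04, 5.32 and 5.64 on a3a6KO 1 to 4. Every a3a6KO value lay below every control value, the gap between the nearest arrays (a3a6KO 4 and control 3) being 0.63. The group means were 6.78 ± 0.40 and 5.26 ± 0.29 (SD, n = 4), a difference of -1.52 (SE 0.238, 95% interval -2.06 to -0.98). Background was exceeded by 2 of its control values and 0 of its a3a6KO values, so the size is uncertain. With the a3a6KO arrays set at their background and the control arrays left as read, control was 1.11-fold higher. Control 1 and 3 did not exceed background either, so this value is not a firm lower bound. Without a3a6KO 3 and 4 the difference was -1.74. The Nr1d1 gene overlaps Thra, the thyroid hormone receptor alpha gene, in the RefSeq annotation; Thra was at 6.15 to 7.59 in control and 6.70 to 7.25 in a3a6KO, with overlapping groups and a difference of 0.10 (SE 0.291).

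Nr1d2, which encodes the related receptor Rev-erb beta, was at 5.95, 6.01, 5.43 and 5.23 in control and 5.43, 5.34, 5.59 and 4.49 in a3a6KO, below background on every array. The groups overlapped, and a3a6KO 4 was the lowest array. Its difference of -0.44 (SE 0.285, interval -1.08 to 0.20) became -0.20 without a3a6KO 4. Set against each other on each array, with each gene centred on its own mean, Nr1d1 minus Nr1d2 lay between 0.26 and 0.91 in control, was -0.98, -0.88 and -0.85 on a3a6KO 1 to 3, and reached 0.57 on a3a6KO 4, inside the control range.

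Bhlhe40, which encodes the E-box repressor Dec1, was above background on all 8 arrays. The control values were 9.69, 9.53, 9.72 and 9.89 and the a3a6KO values 8.78, 8.50, 7.53 and 8.65. All a3a6KO arrays were lower than all control arrays, with a gap of 0.75, and the a3a6KO arrays spread more widely (range 1.25 against 0.36), mainly through a3a6KO 3. The means were 9.71 ± 0.15 and 8.37 ± 0.57 (SD, n = 4), a difference of -1.34 (SE 0.271, interval -1.95 to -0.73), or 2.54-fold. It was -1.06 without a3a6KO 3 and -1.07 without a3a6KO 3 and 4.

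Its relative Bhlhe41, the Dec2 gene, had mixed groups. It was at 7.23, 7.41, 6.66 and 7.03 in control and 7.00, 7.56, 6.83 and 7.67 in a3a6KO, above background on all 8 arrays, with a difference of 0.18 (SE 0.249, interval -0.38 to 0.74). The centred difference of Bhlhe40 minus Bhlhe41 lay between 0.26 and 1.20 in control and between -1.16 and -0.08 in a3a6KO. As Bhlhe40 was chosen for its own difference, this contrast within the pair is a description too.

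**Figure D2:**
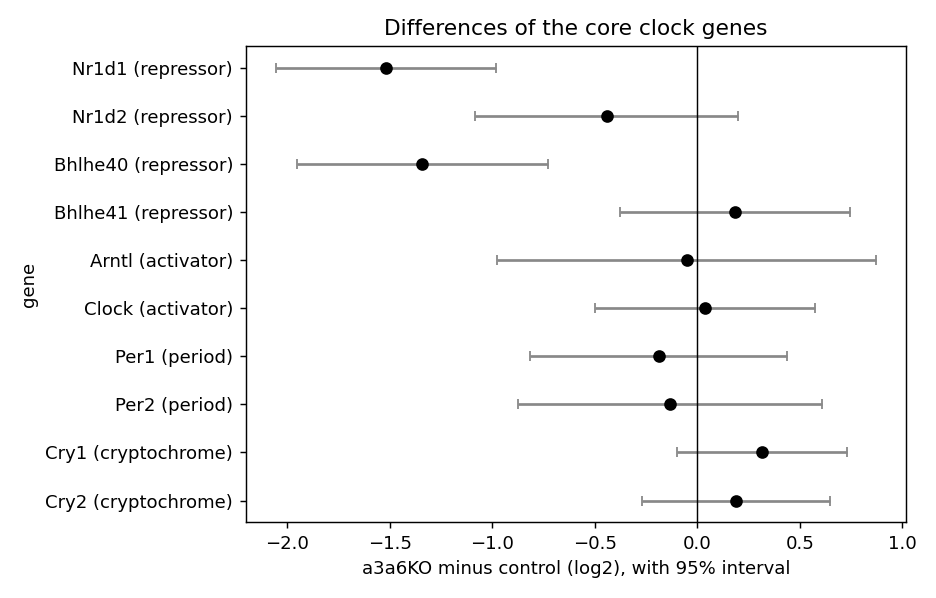
Difference of group means (a3a6KO minus control, log2) of each core clock gene, with the 95% interval of the limma fit across all genes. Nr1d1 (-1.52) and Bhlhe40 (-1.34) lie to the left; the intervals of the other 8 genes include 0.

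The activators that drive Nr1d1 and Bhlhe40 did not differ beyond the spread between replicates. Arntl, the partner that gives the pair its daily rhythm, was at 5.08, 5.26, 6.23 and 5.51 in control and 5.99, 4.65, 4.89 and 6.34 in a3a6KO, below background throughout. It had the widest spread of the members within a3a6KO, with a3a6KO 1 and 4 high and 2 and 3 low, and a difference of -0.05 (SE 0.411, interval -0.98 to 0.87). Clock, its DNA-binding partner, was at 6.84, 7.11, 6.08 and 6.58 in control and 6.38, 6.78, 6.89 and 6.71 in a3a6KO, above background on 5 of 8 arrays. The a3a6KO arrays lay within the control range, and the difference was 0.04 (SE 0.238, interval -0.50 to 0.57). Both intervals are wide and do not show that the activators were at equal levels.

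The period genes, whose products shut the activators down, were mixed between the groups. Per1, which also answers hormones and stimulation directly, was at 7.77, 6.69, 7.01 and 7.09 in control and 6.82, 6.47, 7.43 and 7.08 in a3a6KO. It exceeded background on 7 of the 8 arrays, control 1 and a3a6KO 3 were the highest of their groups, and the difference was -0.19 (SE 0.279, interval -0.82 to 0.44). Per2, the more clock-bound of the pair, was at 6.70, 6.21, 6.31 and 5.46 in control and 6.59, 5.75, 5.43 and 6.37 in a3a6KO, below background on every array, with a difference of -0.14 (SE 0.329, interval -0.88 to 0.61).

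Cryptochrome genes, which encode the strongest repressors of the loop, had slightly higher means in a3a6KO. Cry1 was at 5.89, 5.82, 6.21 and 6.02 in control and 6.26, 6.15, 6.68 and 6.11 in a3a6KO, with a3a6KO 3 the only array above background and a difference of 0.32 (SE 0.184, interval -0.10 to 0.73). Control 3 lay above a3a6KO 2 and 4, so the groups overlapped. Cry2 was at 4.83, 4.80, 5.36 and 5.15 in control and 4.84, 5.24, 5.49 and 5.32 in a3a6KO, below background throughout, with a difference of 0.19 (SE 0.205, interval -0.27 to 0.65). The Cry2 difference came to 0.005 without a3a6KO 3 and 4.

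**Figure D3:**
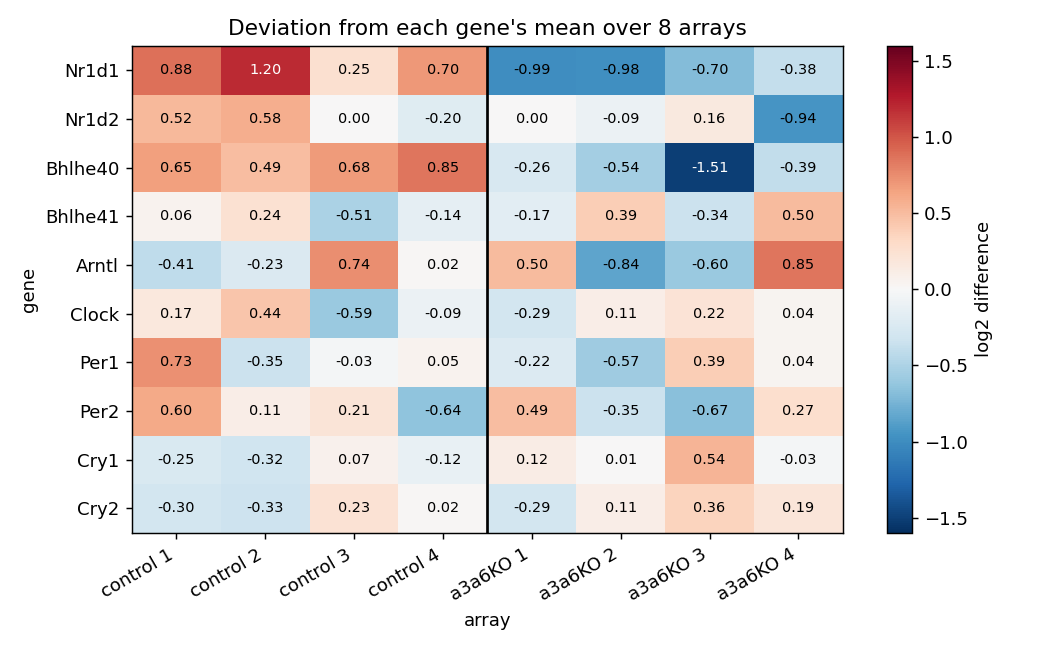
Log2 value of each core clock gene on each array minus that gene's mean over the 8 arrays (rows, genes; columns, arrays; the line divides control from a3a6KO). Nr1d1 and Bhlhe40 are above their mean on the 4 control arrays and below it on the 4 a3a6KO arrays, and the other genes change sign inside the groups.

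On each array, Nr1d1 and Bhlhe40 were set against the other arms of the loop, each gene centred on its own mean. Nr1d1 minus the mean of Arntl and Clock was 1.005, 1.10, 0.18 and 0.74 on control 1 to 4 and -1.09, -0.61, -0.51 and -0.82 on a3a6KO 1 to 4. Minus the mean of the Per and Cry genes, it lay between 0.14 and 1.43 in control and between -1.01 and -0.49 in a3a6KO. Control 3 came nearest to the a3a6KO arrays in both measures. Bhlhe40 minus the activators was 0.78, 0.39, 0.61 and 0.89 in control and -0.36, -0.17, -1.31 and -0.83 in a3a6KO, and minus the Per and Cry genes it lay between 0.46 and 1.03 and between -1.66 and -0.28. The means of the activators differed between the groups by -0.008 and those of the Per and Cry genes by 0.04, so these measures shift by about as much as Nr1d1 or Bhlhe40 alone. Taken over all 4 repressor genes minus the activators, the groups overlapped (0.03 to 0.65 in control, -0.74 to 0.06 in a3a6KO, a difference of -0.77).

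**Figure D4:**
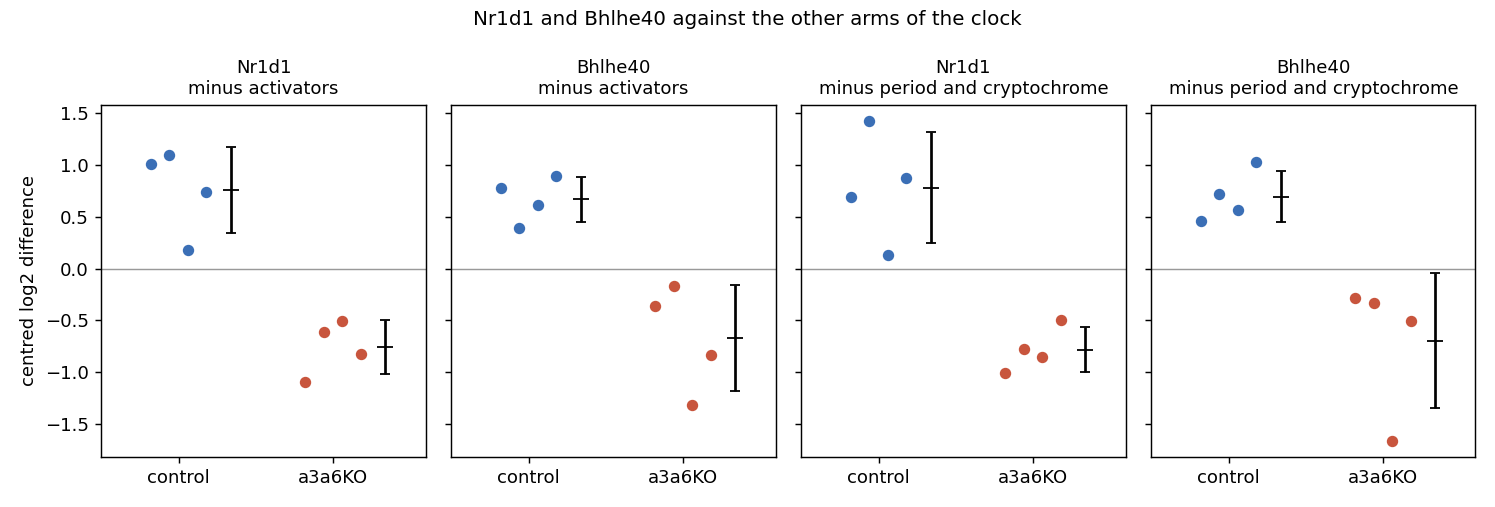
Nr1d1 or Bhlhe40 minus the mean of Arntl and Clock, or minus the mean of Per1, Per2, Cry1 and Cry2, on each array (points), each gene centred on its mean over 8 arrays; bars give the mean and SD of each group of 4. All control arrays lie above 0 and all a3a6KO arrays below it in the 4 panels, with a3a6KO 3 lowest for Bhlhe40.

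Whether the members varied together inside the groups was not part of how they were chosen, and it was tested on deviations from the group means over the 8 arrays, for 17 pairs that hold Nr1d1 or Bhlhe40. With exact permutation of arrays within groups (all arrangements, two-sided), 0 pairs passed after Benjamini-Hochberg adjustment by either coefficient, and an unadjusted p under 0.05 was reached by 1 pair in Pearson's r and 1 in Spearman's rho. The first was Nr1d1 and Clock, with Pearson's r of 0.82 (exact permutation p = 0.0365, adjusted p = 0.62) and Spearman's rho of 0.79 (exact permutation p = 0.0625, adjusted p = 0.354). Without the 2 arrays farthest from the median, control 3 and control 2, r was 0.44, so the relation rests on those arrays. The other was Bhlhe40 and Clock, with rho of -0.71 (exact permutation p = 0.0278, adjusted p = 0.354) and r of -0.44 (exact permutation p = 0.134, adjusted p = 0.694), and r of -0.34 without a3a6KO 3 and a3a6KO 1. Nr1d1 and Bhlhe40 themselves gave r of -0.19 (exact permutation p = 0.677) and rho of -0.36 (exact permutation p = 0.352), so no relation between them inside the groups was detectable. The antiphase pair of the textbook loop, Nr1d1 and Arntl, gave r of -0.12 (exact permutation p = 0.767) and rho of -0.10 (exact permutation p = 0.847). Arntl exceeded background on 0 arrays and Nr1d1 only on 2 control arrays, and the hour of collection is unknown. These coefficients therefore do not bear on antiphase.

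The genes most like Nr1d1 over the 8 arrays, among 2747 genes above background on at least 4 of them, were Uqcrq, a subunit gene of respiratory complex III (Pearson's r = 0.969), Birc3 (0.936), the casein genes Csn3 (0.935) and Csn1s1 (0.921), and Arl1, a Golgi GTPase gene (0.919). Those most like Bhlhe40 were Bag1, a co-chaperone gene (0.962), Mapkbp1 (0.95), Tor1aip2 (0.938), Slc35f5 (0.918) and Btg2, an antiproliferative gene (0.912). Each of these genes had a lower mean in a3a6KO, by -0.20 (Bag1) to -2.42 (Mapkbp1, 8.07 in control and 5.65 in a3a6KO). The background filter can be met through the control arrays alone, which favours genes high in control. Likeness over 8 arrays in 2 groups follows the group difference in large part, the points share arrays, and these values are a description only. Between Nr1d1 and Bhlhe40, r over the 8 arrays was 0.787.

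The wider clock machinery showed no common shift. Of 26 other clock genes listed, 22 were measured, 12 with a higher and 10 with a lower mean in a3a6KO, and the median difference was 0.04 (0.17 without a3a6KO 3 and 4, -0.07 without a3a6KO 1). In limma 0 passed over all genes, with 2 higher and 2 lower at an unadjusted p under 0.05, against 5.13% of all genes. Those 4 were Hdac3, the deacetylase through which Rev-erb receptors repress (-1.23, SE 0.384), Fbxw11, a subunit gene of the ubiquitin ligase that marks Per proteins for destruction (-1.11, SE 0.298), Tipin, partner of Timeless (1.27, SE 0.375), and Cul1, a cullin scaffold gene of such ligases (0.73, SE 0.23). Hdac3 was at 9.23, 8.74, 9.51 and 7.71 in control and 8.07, 7.10, 7.73 and 7.39 in a3a6KO, above background on all arrays, with control 4 among the a3a6KO values. Fbxw11 was at 8.64, 8.07, 8.38 and 7.86 in control and 7.48, 7.59, 6.34 and 7.11 in a3a6KO, without overlap. Tipin and Cul1, both higher in a3a6KO, did not overlap either, and were below background on every array. The groups thus did not overlap in 3 of the 22 genes, against 2.94% of all genes. As the list was chosen with earlier results known, nothing is read from that count. Rora, whose product activates Arntl at the same motif that Rev-erb receptors occupy, was bright and close in both groups (8.15 to 8.50 and 7.93 to 8.53, difference -0.04, SE 0.182). Its probe set is named as unmapped, so this reading rests on the annotated symbol and is a limited measure of Rora. Rora and the next genes were picked outside the naming rule as standard parts of the loop. The Arntl-like and Clock-like genes Arntl2 (0.35, SE 0.213) and Npas2 (-0.26, SE 0.194), Per3 (-0.23, SE 0.24) and the repressor gene Ciart (0.22, SE 0.314) were below background on every array.

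Clock output genes, which follow the clock in other tissues, were likewise mixed: of 15 measured, 6 had a higher and 9 a lower mean, the median difference was -0.06 (-0.05 without a3a6KO 3 and 4), 0 passed in limma and 0 had an unadjusted p under 0.05. The smallest p-values belonged to Klf10 (-0.44, SE 0.285), Ppara (-0.42, SE 0.307), Usp2 (0.58, SE 0.454) and Tfrc (0.26, SE 0.214). Dbp, the D-box activator gene that usually follows the Arntl and Clock pair most closely, was at 4.87, 6.43, 6.30 and 5.40 in control and 5.19, 5.92, 5.39 and 5.95 in a3a6KO, below background throughout, and differed by -0.14 (SE 0.362). Nfil3, the D-box repressor gene held down by Rev-erb receptors, was at 6.89, 7.10, 6.82 and 7.45 in control and 7.27, 6.93, 7.44 and 7.42 in a3a6KO, a difference of 0.20 (SE 0.20).

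**Figure D5:**
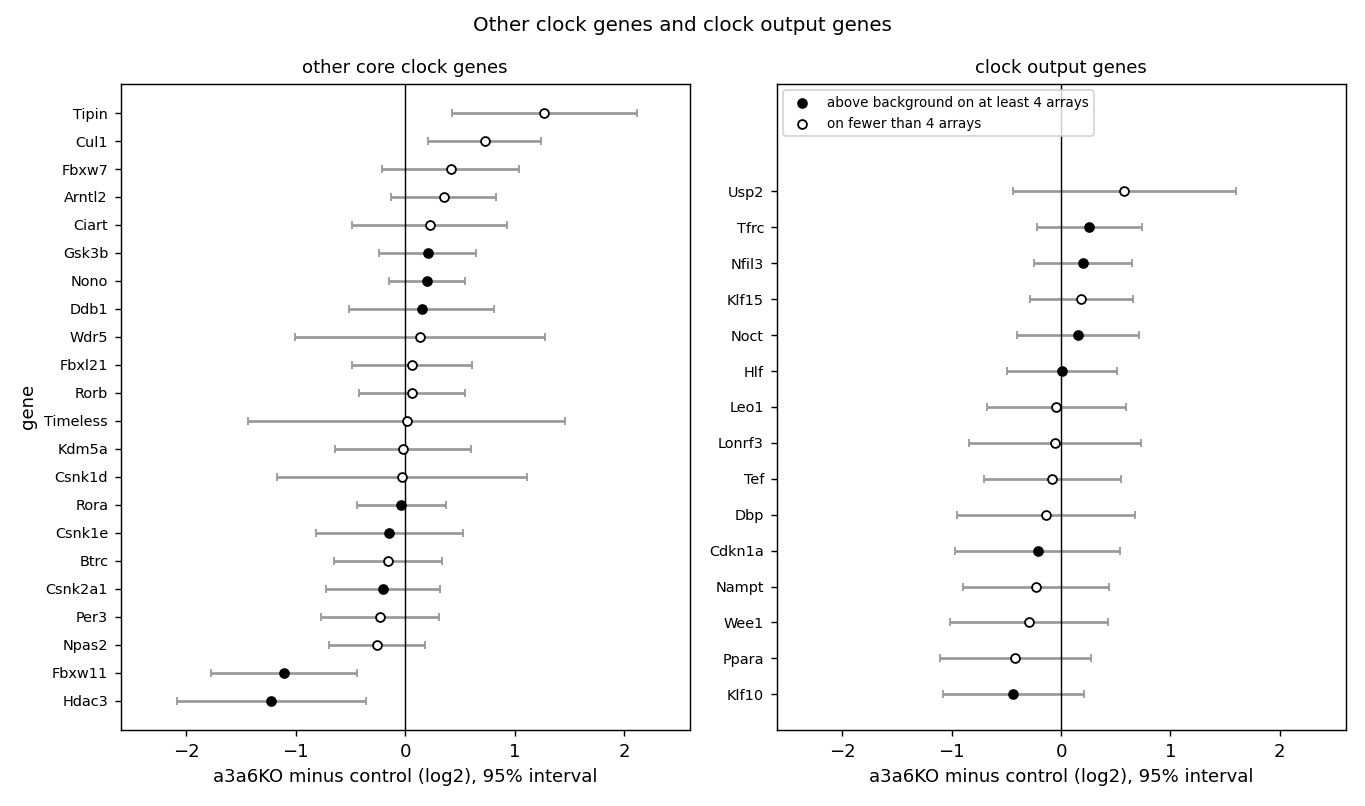
Difference of group means (a3a6KO minus control, log2) with the 95% interval of the limma fit, for 22 other core clock genes and 15 clock output genes. Filled points mark genes above background on at least 4 of the 8 arrays. Hdac3 and Fbxw11 are lowest on the left, and the intervals of all output genes include 0.

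Genes that touch Rev-erb function by other routes were listed too. Heme is the ligand of both Rev-erb receptors, and of 11 measured genes of its synthesis and breakdown 8 had a lower and 3 a higher mean in a3a6KO (median -0.15, also without a3a6KO 3 and 4, and -0.42 without control 4), with 0 past the threshold in limma and 2 lower at an unadjusted p under 0.05. These were Cpox (-0.81, SE 0.236) and Urod (-1.03, SE 0.317), enzymes of heme synthesis. Neither exceeded background anywhere, nor did 5 others of the list. Over all genes, 5.13% had an unadjusted p under 0.05 in limma. The list's mean level, each gene centred, was -0.01, 0.37, 0.30 and -0.03 on control 1 to 4 and -0.24, -0.09, -0.16 and -0.14 on a3a6KO 1 to 4. These groups did not overlap, though control 1 and 4 lay close to a3a6KO 2. In the list of Rev-erb lipid targets and partners, 7 of 11 genes had a higher and 4 a lower mean (median 0.03), with 0 past the threshold in limma. That median turned to -0.39 without a3a6KO 3 and 4 and to -0.22 without control 2. Ehhadh, a peroxisomal fatty acid oxidation enzyme, was the 1 member with an unadjusted p under 0.05, at 6.38, 5.73, 6.86 and 6.49 in control and 4.45, 3.98, 3.95 and 5.05 in a3a6KO (-2.01, SE 0.311), above background on 1 array.

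Bhlhe40 and Per1 also answer stimulation through CREB, and 11 of the 13 measured genes of the CREB and immediate early list had a lower mean in a3a6KO (median -0.21), with 0 past the threshold in limma and 1 higher at an unadjusted p under 0.05. Over all genes, 5.13% had an unadjusted p under 0.05 in limma. The median of the list was -0.05 without a3a6KO 3 and -0.06 without a3a6KO 3 and 4. The list's mean level, each gene centred, was 0.25, 0.20, 0.06 and -0.14 on control 1 to 4 and 0.15, 0.10, -0.54 and -0.09 on a3a6KO 1 to 4. The array lowest in Bhlhe40, a3a6KO 3, was also the lowest here. Control 4, the array highest in Bhlhe40 (9.89), was the lowest control array here and lay below a3a6KO 1, 2 and 4. Atf3 (-0.45, SE 0.20), Sik1 (-0.32, SE 0.173) and Fos (-0.47, SE 0.301) had the smallest p-values among the lower genes and were above background on every array, and Creb1 (0.41, SE 0.176) was higher and below it. The part of this list in the level of Bhlhe40 was not tested.

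Markers of basal cells, the outer epithelial layer, differed between arrays in both groups: 13 of 14 had a lower mean in a3a6KO, 2 exceeded background on every array and 3 on none. Their median difference was -0.50, with 0 past the threshold in limma and 4 lower at an unadjusted p under 0.05: the keratin genes Krt5 (-2.54, SE 0.987) and Krt14 (-1.597, SE 0.707), the transcription factor gene Trp63 (-2.43, SE 0.641), whose groups did not overlap, and Myl9 (-1.06, SE 0.458). Over all genes, 5.13% had an unadjusted p under 0.05 in limma. The differences of Krt5, Trp63 and Krt14 were larger in size than those of Nr1d1 (-1.52) and Bhlhe40 (-1.34). The summed log2 level of the list was 83.3 to 106.6 in control and 75.2 to 101.5 in a3a6KO, highest on control 4, a3a6KO 3 and control 2. With the basal marker level as a covariate, Nr1d1 differed by -1.42 and Bhlhe40 by -1.56. That level did not follow Krt5. Krt5 was highest on control 3 (9.54), where the centred list level was the lowest of the control arrays (-0.35). On a3a6KO 3 the list level was 0.95 and Krt5 was at 5.47. The covariate is therefore not a full adjustment for basal cells. Endothelial markers had summed levels of 33.9 to 52.3 and 32.4 to 49.1, with control 4 and a3a6KO 3 highest and 0 of 8 genes above background on every array. Without those 2 arrays Nr1d1 differed by -1.56 and Bhlhe40 by -1.003. Fibroblast, leukocyte and adipocyte markers exceeded background on no array in 7 of 8, 9 of 10 and 6 of 7 genes. Of the 11 luminal markers, 7 had a higher and 4 a lower mean in a3a6KO (median 0.10), with 0 past the threshold in limma. At an unadjusted p under 0.05 in limma were 2, both lower with overlapping groups: the milk protein genes Lalba (-0.74, SE 0.306) and Wap (-0.585, SE 0.258).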

How the data were processed

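Luminal cell RNA (4 control and 4 a3a6KO arrays) was amplified and biotin-labelled per the labels' protocols. The authors made the deposited log2 values with Affymetrix Expression Console and RMA (per the submitters' processing notes, versions not stated). RMA corrects background, sets arrays to 1 distribution and summarizes probe sets, which hides any change common to most genes. Of 28846 probe sets, 19572 had 1 gene symbol in GEO's platform annotation, 0 several and 9274 none; the set of highest mean was kept per gene (19505 genes; each member had 1 set). No 2 arrays were identical; arrays correlated over genes at 0.930 to 0.945 in the same group, 0.924 to 0.946 across groups.

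Groups were compared with limma 3.58.1 in R 4.3.3 (lmFit, eBayes, group only, two-sided, Benjamini-Hochberg over all genes, threshold 0.05), checked on simulated data. Standard errors and intervals come from this fit; the number of arrays limits precision, with a median SE of 0.234. Background is the 95th percentile of negative control sets. A gene's bound raises the arrays of its dimmer group to their background where they read lower, and leaves the other group as read. Tables were made in Python 3.11.15.

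The members and lists were chosen with earlier results of these data known. Named by rule were all members, Itga3 and Itga6, up to 4 genes of smallest p per list described, and the 5 genes most like Nr1d1 and Bhlhe40. Outside that rule, Rora, Arntl2, Npas2, Per3, Ciart, Dbp, Nfil3, Thra and the luminal markers Krt8, Epcam and Csn2 were named too. Of the listed genes, those without a measured symbol were not analysed here. Alternatives covered the replicate number, scaling, array weights, prior trend, dim genes, probe set choice, arrays left out, and basal marker level. Bhlhe40 and Per2 are named without promoter sequence.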

Additional observations from a re-analysis of the deposited data

Results flagged for a closer look

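Each of 68 genes and 10 differences between clock arms was looked at in both groups of 4 for an array far from the others by Dixon's ratio, 156 groups in all, and 9 were marked; chance marks about 1 group in 20. Among the measures of the clock arms, Bhlhe40 minus the Per and Cry genes stood at -1.66 on a3a6KO 3, away from the other 3 a3a6KO arrays, and Nr1d1 minus Nr1d2 stood at 0.57 on a3a6KO 4, the array with the lowest Nr1d2. No single member was marked in either group. In the other lists, Ppara was high on control 2 (3.31), Creb1 high on control 3 (5.93), P4ha1, a hypoxia-induced gene, low on control 1 (3.38) and Col1a2, a fibroblast collagen gene, low on control 2 (3.48). The endothelial markers Cldn5 (7.06) and Kdr (6.28) were high on control 4, and Tek (3.81) was high on a3a6KO 3. Of the genes marked in these lists, all but Cldn5 were below background on every array, so their marks concern values that are not resolved from background.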

How the results depend on the processing

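Under all 17 alternatives limma called 0 genes over all genes tested and 0 in the other clock lists. The difference of Nr1d1 kept its direction in its 16 alternatives (-1.74 to -1.37; -1.69 to -1.37 with 1 array left out), with adjusted p of 0.424 to 0.964 in limma; with dim genes left out it was not tested, being above background on 2 arrays. Bhlhe40 kept its direction in 17 (-1.56 to -1.003; -1.48 to -1.06 with 1 array left out), with adjusted p of 0.53 to 0.987 in limma, and the repressors minus activators in 16 (-0.92 to -0.58). The groups do not overlap in Nr1d1 and Bhlhe40, so leaving arrays out could not change the direction of either gene. The replicate block, the prior trend and the mean over probe sets leave both differences as they were by construction. The kept direction of these 2 genes is therefore no further support. The differences of Nr1d2, Bhlhe41, Cry1 and Cry2 kept their sign, those of Arntl, Clock, Per1 and Per2 took the opposite sign or came to 0 in 4, 5, 1 and 3 alternatives, and each moved from its main value by less than its replicate SD. List medians took the opposite sign or came to 0 in 5 alternatives (other clock genes), 4 (output), 2 (glucocorticoid), 2 (hypoxia) and 6 (Rev-erb lipid); the other 3 kept their sign but not their size: the CREB median went from -0.21 to -0.05 without a3a6KO 3, the heme median from -0.15 to -0.42 without control 4 and the temperature median from 0.13 to 0.002 without a3a6KO 1. Within-group pairs past the threshold remained 0 in 9 alternatives. With the replicate number as a block, limma called 0 genes and Nr1d1 differed by -1.52 (adjusted p = 0.942). Over all genes, same-numbered arrays did not deviate together (r of -0.06 to 0.04). A shared factor that moves few genes would not show in these r, so they cannot tell whether the numbers pair the arrays. Of the members, 4 of 10 exceeded background on no array and 2 on every array.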

Other observations

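Other signals that reset or accompany the clock gave no common shift. Of 12 glucocorticoid response genes, 7 had a higher and 5 a lower mean in a3a6KO (median 0.04; -0.03 without a3a6KO 3 and 4), with 0 past the threshold in limma and 0 at an unadjusted p under 0.05. Sgk1, a kinase gene induced by glucocorticoids, was at 8.98, 8.97, 9.13 and 9.17 in control and 9.36, 9.37, 9.33 and 9.20 in a3a6KO, above background on every array and without overlap, a difference of 0.25 (SE 0.144). Tsc22d3, another such gene, was below background on every array (-0.60, SE 0.457). Of 13 hypoxia response genes, which share induction by low oxygen with Bhlhe40, 8 had a higher and 5 a lower mean (median 0.15; 0.13 without a3a6KO 3 and 4, -0.07 without control 3), again with 0 past the threshold in limma and 0 at an unadjusted p under 0.05. The smallest p-values belonged to P4ha1 (0.51, SE 0.242) and Pdk1 (0.57, SE 0.429), both below background on every array. Next came Pfkfb3 (-0.27, SE 0.207) and Ndrg1 (0.44, SE 0.358), both above it on every array. Of 7 temperature response genes 4 had a higher mean (median 0.13; 0.23 without a3a6KO 3 and 4, 0.002 without a3a6KO 1), with the cold-induced Cirbp at -0.65 (SE 0.544) and the heat shock gene Hspa1a at 0.22 (SE 0.227), and 0 passed in limma with 0 at an unadjusted p under 0.05.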
